A study of Homo sapiens with 7 samples.

Results

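The genes described here are 10 antioxidant genes of HEK293 cells. They are the peroxiredoxins PRDX1, PRDX2, PRDX3, PRDX4, PRDX5 and PRDX6, thioredoxin (TXN), the superoxide dismutases SOD1 and SOD2, and the methionine sulfoxide reductase MSRA. They were taken by gene symbol from 3 tables of polyadenylation sites (PASs), which list 16044 genes in all, and every row of theirs was on the sense strand. MSRA was selected on its measured rise in every knockdown, and the group was built around it. Its own values are therefore a description, with no test, and the comparison asks whether the other 9 genes moved with it.

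HEK293, a human cell line of long standing from embryonic kidney, was used throughout. The cells received a control siRNA (siCtrl) or siRNAs against one of 3 nuclear poly(A) polymerases, namely Star-PAP (gene TUT1), PAPα (PAPOLA) or PAPγ (PAPOLG), or against PAPα and PAPγ together (double KD). Total RNA was sequenced with 3′READS, in which a read begins at the end of an RNA next to its poly(A) tail and so marks the PAS that was used. A second batch, so named in the labels, holds siCtrl and siStar-PAP made with the related 3′READS+ protocol, and the first siCtrl, siStar-PAP, siPAPα and siPAPγ libraries are called batch 1 here. The double KD stands in a table of its own beside the siCtrl of batch 1, and its batch is not stated. That gives 7 libraries with 1 library per condition and batch, and nothing in the labels says that they came from separate cultures. For ratios of levels and for tests of PAS use in 1 pair, a knockdown was compared only with the siCtrl of its own table. There were 5 such pairs, of which 4 share the siCtrl of batch 1. The fits over both batches or over all 7 libraries instead used a siCtrl level drawn from both batches.

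Peroxiredoxins reduce hydrogen peroxide and organic peroxides with a reactive cysteine, and most of them are returned to the reduced form by thioredoxin. Superoxide dismutases make the peroxide, from superoxide. MSRA works further downstream and reduces oxidised methionine in proteins, also with electrons from thioredoxin.

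Sense reads per library ran from 2347192 in siStar-PAP of batch 2 to 16191098 in siPAPα. Levels are given as RPM, the number of reads per 1000000 PAS-supporting reads of the library, and since a read stands for the end of an RNA, RPM compares genes without a correction for length. Intervals are exact at the 95% level and cover counting error only, since PCR copies are not independent molecules. Of the HEK293 markers, VIM, KRT8, KRT18, NEFM and NEFL had reads in 7 libraries and PAX2 in 6. KRT18 stood at 783 to 3927 RPM, VIM at 42.8 to 152 and NEFL at 9.85 to 41.6. NEFM ran from 0.235 to 11.8 RPM, KRT8 from 0.396 to 3.24 and PAX2 from 0 to 2.77. The blood cell genes PTPRC and CD3E and the hepatocyte gene ALB were not listed in any table. The fibroblast gene COL1A1 reached at most 2.38 RPM, a level from which KRT8 and PAX2 did not stand clear. Fewer cells of a kind and less RNA per cell cannot be told apart in such libraries.

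The targeted genes check some labels and not others. TUT1 had 83 reads in siCtrl and 2 in siStar-PAP of batch 1, a ratio of RPM of 0.0166 with an interval of 0.00198 to 0.0620. In batch 2 it had only 6 and 4 reads, and the interval of that ratio, 0.164 to 3.34, includes no change. PAPOLA stood at 0.0770 times its siCtrl level in siPAPα and at 0.0624 times in the double KD. PAPOLG had 5 reads in siCtrl and 15 in the library labelled siPAPγ, a ratio of 2.32 with an interval of 0.800 to 8.15, and it had 6 reads in the double KD, a ratio of 0.730 with an interval of 0.186 to 3.02. The value in the library labelled siPAPγ lies against its label in direction, but both intervals include no change, so that these few reads do not check the label. The study checked the knockdowns on protein by Western blot, which is not analysed here.

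The other antioxidant genes did not follow MSRA. In RPM, 0 of the 9 were above 1.5-fold higher than siCtrl in any of the 5 pairs, and 0 were higher by any amount in all 5. MSRA itself was 7.45-fold higher in siStar-PAP and 6.54-fold higher in siPAPα. PRDX6, whose product also has phospholipase activity, stood at 0.931 to 1.17 times siCtrl over the 5 pairs in RPM and at 1.17 to 1.60 times relative to the median gene, a scale on which PRDX2 stood at 0.941 to 1.17 times. Above 1.5-fold higher in all 5 pairs stood 229 of 11186 genes with reads in every library, or 2.05%, of which MSRA is a member by the way it was chosen.

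**Figure D1:**
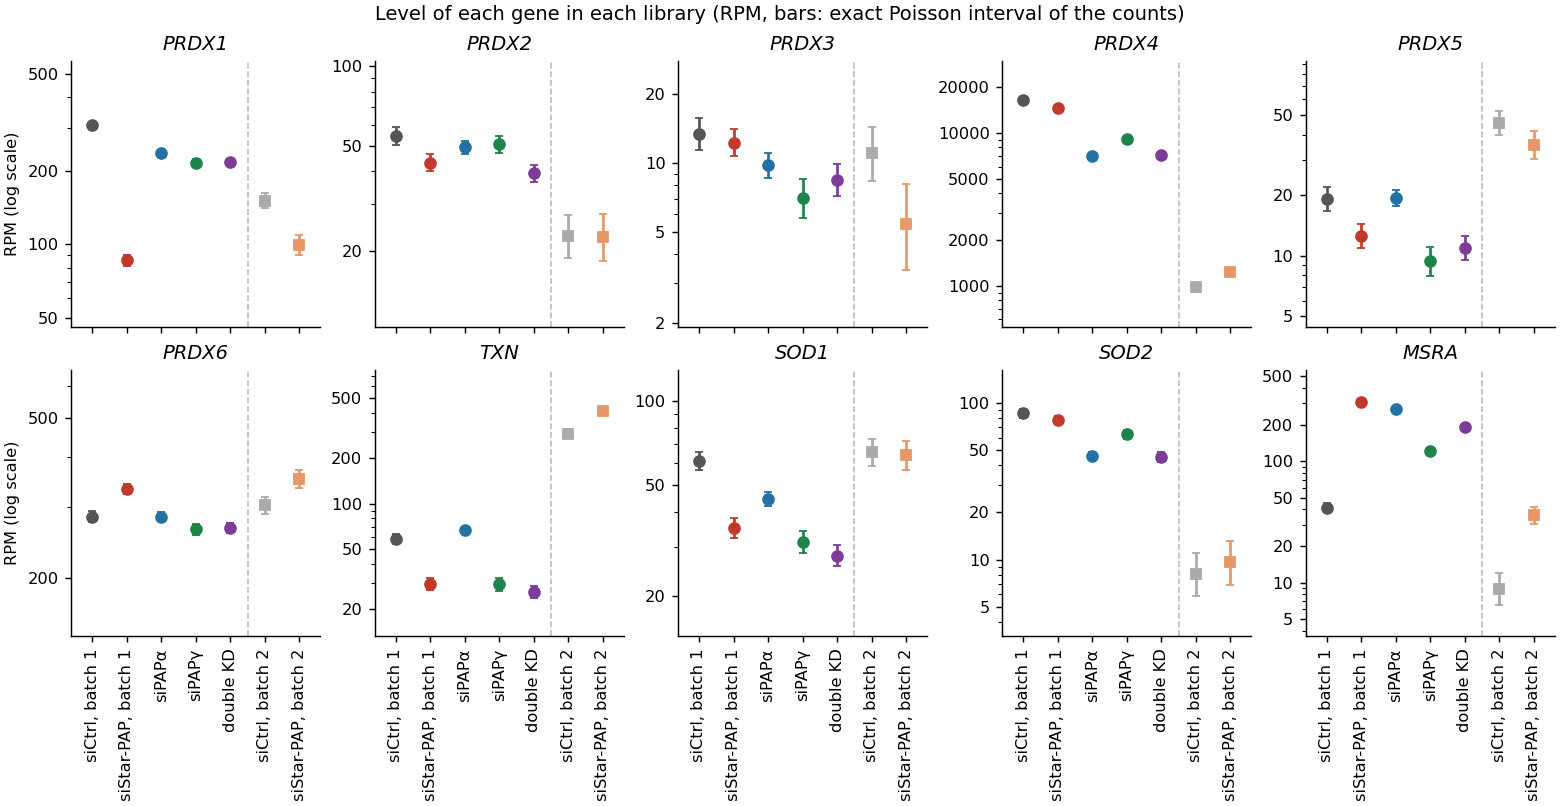
Level of each gene (RPM, log scale, a scale of its own per panel) in each of the 7 libraries. Circles are 3′READS libraries, squares right of the dashed line are 3′READS+ libraries of batch 2, and bars are exact 95% Poisson intervals of the counts. MSRA is above its siCtrl in every knockdown, and PRDX1 is lowest in siStar-PAP of batch 1, at 86.0 RPM.

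MSRA (chr8:9911802-10286401, + strand) had 474 reads or 41.5 RPM in siCtrl of batch 1. It stood at 309 RPM in siStar-PAP, 271 in siPAPα, 122 in the library labelled siPAPγ and 190 in the double KD. Its batch 2 levels were 8.91 RPM (45 reads) in siCtrl and 36.0 RPM (153 reads) in siStar-PAP, a 4.04-fold difference. The knockdown level was above the siCtrl level in every pair, with no overlap of the intervals, and the smallest ratio was 2.95-fold in the library labelled siPAPγ. Nearly all of its reads came from a PAS 6 nt before the annotated end of the gene. A site 526 nt before that end, listed in 2 of the tables, had 17 of 491 reads in siCtrl and 16 of 3578 in the double KD, so the higher level was carried by the distal site.

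The 5 genes nearest to MSRA over the 5 log2 ratios of RPM, by Euclidean distance among those 11186 genes, were FAM86EP (0.55), RPL13A and RPL13AP5 (0.74 each), ZFP36L2 (0.96) and CINP (1.08). RPL13A and RPL13AP5 had the same counts in every library, so they are 1 set of reads. FAM86EP had 4 reads and ZFP36L2 had 3 reads in siCtrl of batch 1, against 88 for CINP. The 9 other antioxidant genes lay at distances of 5.05 (PRDX6, rank 2692) to 7.07 (PRDX1, rank 7902). The ratios share a control in 4 of 5 pairs, so that the distance describes these libraries.

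Of the antioxidant genes, 4 were above 1.5-fold lower in siStar-PAP of batch 1 (PRDX1, PRDX5, TXN and SOD1), 2 in siPAPα (PRDX4 and SOD2), 5 in the library labelled siPAPγ (PRDX3, PRDX4, PRDX5, TXN and SOD1), 6 in the double KD (these 5 and SOD2) and 2 in siStar-PAP of batch 2 (PRDX1 and PRDX3). Lower levels were common among all genes. Above 1.5-fold lower were 43.2%, 36.5%, 37.7%, 41.5% and 26.3% of genes with more than 50 reads in these pairs in the same order, and above 1.5-fold higher 10.2%, 17.2%, 12.2%, 14.3% and 11.4%. The share of lower genes among the 9 was thus under that of all genes in siPAPα and in batch 2 and over it in the other 3 pairs, and over 1.5-fold higher it was 0 in each.

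The median gene was itself at a log2 ratio of -0.45 in siStar-PAP of batch 1, -0.26 in siPAPα, -0.33 in the library labelled siPAPγ, -0.38 in the double KD and -0.16 in siStar-PAP of batch 2. The median of the 9 genes was -0.34, -0.38, -0.86, -0.81 and -0.01. They lay above the median gene in 5, 4, 2, 1 and 6 of 9 cases. Set against the median gene instead of the read total, the genes above 1.5-fold higher and lower were 1 and 1 in siStar-PAP of batch 1 (PRDX6 and PRDX1) and 1 and 1 in batch 2 (TXN and PRDX3), and in the other 3 pairs 0 were higher. On that scale 2 were lower in siPAPα (PRDX4 and SOD2, as in RPM), 4 in the library labelled siPAPγ (PRDX3, PRDX5, TXN and SOD1) and 3 in the double KD (PRDX4, TXN and SOD1).

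**Figure D2:**
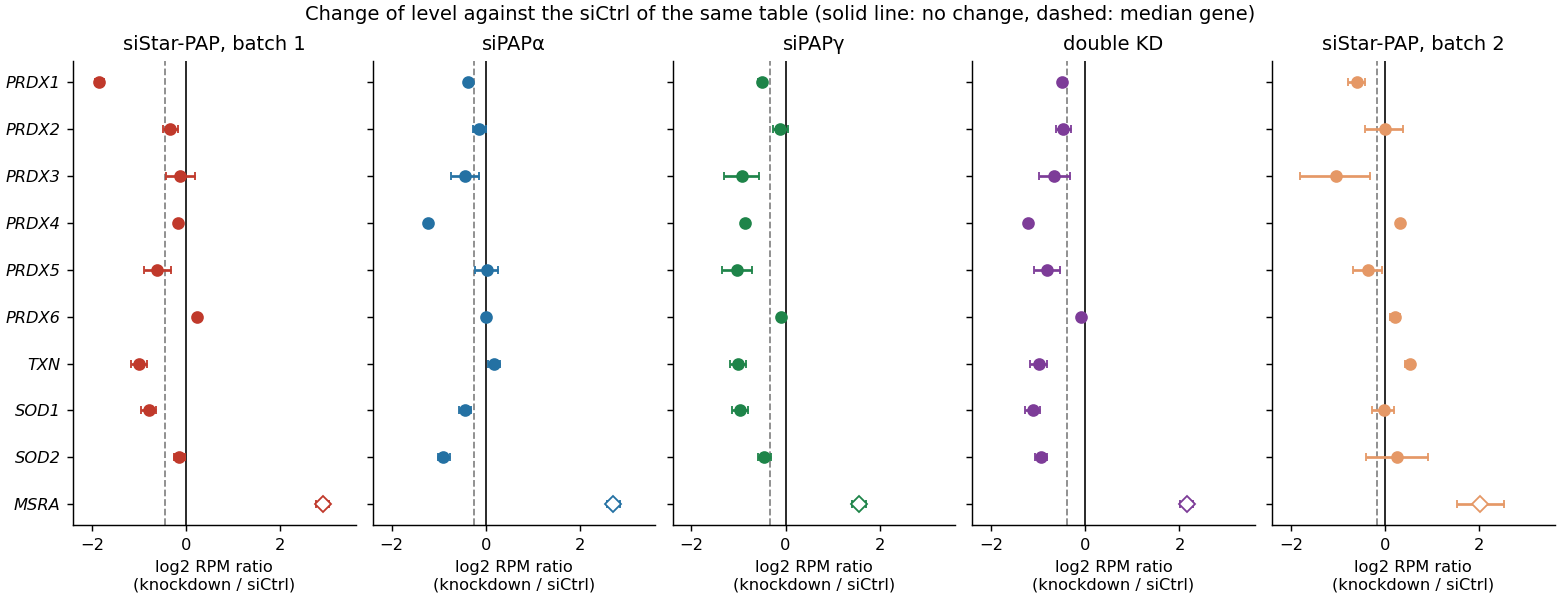
Log2 ratio of RPM of each gene in each knockdown to the siCtrl of its own table, with exact 95% intervals of the counts. The solid line is no change, the dashed line the median gene, and the open diamond is MSRA, which chose the group. MSRA lies at 1.56 to 2.90, while the 9 other genes lie between -1.84 and 0.52.

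With the spread between the batches taken in, none of the 9 passed. In the edgeR quasi-likelihood fit of siStar-PAP over both batches, with batch as a block, 274 of 11878 genes passed at an adjusted p under 0.05, or 2.31%, and 0 of the 9 genes did, with 1 at an unadjusted p under 0.05. That was PRDX1, at a log2 fold change of -0.87 ± 0.34 (SE, n = 2 libraries a group, edgeR adjusted p 0.216), lower than siCtrl in both batches. The other 8 lay between -0.15 (PRDX3) and 0.57 (PRDX6, SE 0.33, edgeR adjusted p 0.445). DESeq2 also called 0 of the 9, with 2 at an unadjusted p under 0.05, PRDX1 and PRDX6 (DESeq2 adjusted p 0.175 and 0.286). The fit has 1 residual degree of freedom and standard errors of 0.33 to 0.45, so that small changes of these genes were not detectable.

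For the other knockdowns, a fit of all 7 libraries assumes that a lone library varies as siCtrl and siStar-PAP do between batches. Against the siCtrl of its own pair, TXN in siPAPα had a log2 ratio of 0.18 in RPM and 0.43 relative to the median gene. The fit takes the siCtrl level from both batches, so that its fold changes can differ from such ratios. It called 690 of 13113 genes in siPAPα (5.26%), 593 in the double KD (4.52%) and 257 in the library labelled siPAPγ (1.96%), and 0 of the 9 genes in each. In siPAPα, 1 of the 9 had an unadjusted p under 0.05, which was TXN, over the 2 PASs listed in both 3′READS tables, at a log2 fold change of 0.93 ± 0.42 (SE, edgeR adjusted p 0.221). In the other 2 knockdowns 0 did. DESeq2 put another gene, PRDX4, at an unadjusted p under 0.05, in siPAPα and in the double KD (DESeq2 adjusted p 0.0760 and 0.149), and none in the library labelled siPAPγ, while TXN in siPAPα had a DESeq2 adjusted p of 0.420. In edgeR PRDX4 stood at -0.81 ± 0.53 in siPAPα and -0.72 ± 0.53 in the double KD (edgeR adjusted p 0.507 and 0.576).

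PRDX1 (chr1:45976586-46008404, - strand), an abundant cytosolic peroxiredoxin, was the gene with the lowest ratio. It stood at 307 RPM in siCtrl, 86.0 with siStar-PAP, 236 with siPAPα, 216 in the library labelled siPAPγ and 217 in the double KD, and in batch 2 at 151 in siCtrl and 99.5 in siStar-PAP. The siStar-PAP level was 0.280 times siCtrl in batch 1, with an interval of 0.263 to 0.298, and 0.659 times in batch 2. All knockdowns were below their siCtrl, and the siStar-PAP library was the lowest of batch 1. At a log2 ratio of -1.84 the gene stood at percentile 7.53 of all genes of that pair, and at -0.60 it stood at percentile 25.3 in batch 2.

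PRDX2, the near relative of PRDX1 in the cytosol (chr19:12907634-12912614, - strand), stayed within 1.5-fold of siCtrl in every pair. It had 54.4 RPM in siCtrl, 43.1 with siStar-PAP, 49.3 with siPAPα, 50.6 in the library labelled siPAPγ and 39.3 in the double KD, and 22.8 and 22.6 RPM in siCtrl and siStar-PAP of batch 2. PRDX3, the peroxiredoxin of mitochondria (chr10:120927232-120938324, - strand), had the fewest reads in siCtrl of batch 1. It stood at 13.4 RPM (153 reads) in siCtrl, 12.3 with siStar-PAP, 9.81 with siPAPα, 7.03 in the library labelled siPAPγ and 8.46 in the double KD, and in batch 2 at 11.1 RPM (56 reads) and 5.41 RPM (23 reads). The siStar-PAP interval of its log2 ratio ran from -0.43 to 0.19 in batch 1 and from -1.80 to -0.31 in batch 2, so only the second excludes no change.

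PRDX4, the peroxiredoxin of the endoplasmic reticulum (chrX:23682379-23704514, + strand), was the most abundant of the 10 genes in every library. It stood at 16439 RPM in siCtrl, where it ranked 3 among 15467 genes, at 14497 in siStar-PAP, 7002 in siPAPα, 9027 in the library labelled siPAPγ and 7112 in the double KD. The batch 2 levels were 982 RPM in siCtrl and 1223 in siStar-PAP. The level was thus lower by 2.35-fold in siPAPα and 2.31-fold in the double KD, and within 1.25-fold of siCtrl in both siStar-PAP libraries. The siCtrl of batch 1 was 16.7 times that of batch 2. The protocols differ between the batches, and their part in this was not tested.

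PRDX5, a peroxiredoxin found in mitochondria, peroxisomes and the cytosol (chr11:64085593-64089283, + strand), had 19.2 RPM in siCtrl, 12.6 with siStar-PAP, 19.4 with siPAPα, 9.40 in the library labelled siPAPγ and 11.0 in the double KD, and 45.8 and 35.5 RPM in batch 2. The siPAPα level lay on the siCtrl level, and the other 3 levels set against that siCtrl lay below it with no overlap of the intervals. PRDX6 (chr1:173446469-173457954, + strand) had 284 RPM in siCtrl, 333 with siStar-PAP, 284 with siPAPα, 265 in the library labelled siPAPγ and 266 in the double KD, and 303 and 352 RPM in batch 2. It was 1.17-fold and 1.16-fold higher in the siStar-PAP libraries of the 2 batches. Among the 9 genes it was the only one above siCtrl in RPM in siStar-PAP of batch 1.

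TXN (chr9:113006090-113018787, - strand) moved differently between knockdowns and between batches. It stood at 58.8 RPM in siCtrl, 29.5 with siStar-PAP, 66.5 with siPAPα and 29.3 in the library labelled siPAPγ. In the table of the double KD, which lists 1 PAS of TXN fewer, it stood at 51.8 RPM in siCtrl and 26.1 in the double KD. In batch 2 it stood at 288 RPM in siCtrl and 413 in siStar-PAP. Its log2 ratio in siStar-PAP was thus -0.99 in batch 1 (interval -1.16 to -0.82) and 0.52 in batch 2 (interval 0.42 to 0.62), and a fit over both gave 0.12 ± 0.36 (SE, edgeR adjusted p 0.923).

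SOD1, the copper and zinc enzyme of the cytosol (chr21:33031979-33041244, + strand), had 60.9 RPM in siCtrl, 35.2 with siStar-PAP, 44.7 with siPAPα, 31.3 in the library labelled siPAPγ and 27.9 in the double KD. The siCtrl of batch 1 was above all knockdowns beside it with no overlap of the intervals, whereas in batch 2 siCtrl and siStar-PAP stood at 65.6 and 64.0 RPM. SOD2, the manganese enzyme of mitochondria (chr6:160090101-160183561, - strand), had 85.9 RPM in siCtrl, 77.9 with siStar-PAP, 46.2 with siPAPα, 63.1 in the library labelled siPAPγ and 45.3 in the double KD. It had 41 reads in each library of batch 2, or 8.12 and 9.65 RPM. Among the 5 libraries other than those of batch 2, its lowest levels were thus those of siPAPα and the double KD, as for PRDX4.

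The order of the genes was PRDX4, PRDX1, PRDX6, SOD2, SOD1, TXN, PRDX2, MSRA, PRDX5 and PRDX3 in siCtrl of batch 1. Neighbours whose intervals overlapped there were SOD1 and TXN, and TXN and PRDX2. In siStar-PAP and in siPAPα of that batch MSRA came next after PRDX4 and PRDX6, and in siPAPα its interval overlapped that of PRDX6. In siCtrl of batch 2 the order was PRDX4, PRDX6, TXN, PRDX1, SOD1, PRDX5, PRDX2, PRDX3, MSRA and SOD2.

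The 10 genes used 26 PASs, of which 23, 24 and 21 were listed in the tables of batch 1, the double KD and batch 2 and 18 in all 3. All 26 lay in the last exon, in the 3′UTR by the GENCODE annotation of GRCh37. PRDX2, PRDX4 and PRDX5 had 1 PAS each. Of the 26 sites, 10 had AATAAA in the 40 nt before the PAS, 6 had ATTAAA, 4 had AGTAAA, 2 had TATAAA, 1 had AATACA and 3 had none of the 11 signals searched, on the strand of the RNA only. Among 37666 last-exon sites of batch 1, 46.3% had AATAAA, 15.8% had ATTAAA, 3.97% had AGTAAA, 4.18% had TATAAA and 19.0% had none. The rarer signals were CATAAA (2.06%), GATAAA (1.75%), AATATA (2.26%), AATACA (2.27%), AATAGA (0.858%), AAAAAG (0.685%) and ACTAAA (0.810%). A site with several signals was counted once, under the first in the order of these sentences.

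PAS use was compared in the 6 genes other than MSRA with several sites. Fisher's exact test of a site's reads against the other reads of its gene compares 2 libraries, and since reads of a site vary more than independent reads its p-values are too small. At a Benjamini-Hochberg adjusted p under 0.05, 13 of 19 tested sites differed in siStar-PAP of batch 1, where 34.1% of all sites did. In the same way 11 of 19 differed in siPAPα (36.0% of all sites), 10 of 19 in the library labelled siPAPγ (25.0%), 10 of 19 in the double KD (38.6%) and 4 of 16 in siStar-PAP of batch 2 (8.43%). With a change of at least 10 percentage points as well, the counts were 7, 4, 4, 4 and 2, against 22.4%, 23.2%, 16.5%, 23.2% and 6.21% of all sites. Sites of 1 gene are not independent, since their shares add up to 100%. More reads let smaller differences pass, and the counts were not matched to all sites by depth. By reads in siCtrl of batch 1, the 6 genes ranked from 340 (PRDX1) to 4933 (PRDX3) among 15467.

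Differences of at least 10 points in 4 or more pairs were those of PRDX1 and TXN, whose sequences before each PAS are shown because the sites differ in their signals. The lines give positions -35 to -6 from the PAS in the GRCh37 genome, with the poly(A) signal in capitals.
PRDX1, proximal PAS, chr1:45976905-45976934, - strand: ttttttccattAGTAAAacacaagacttca
PRDX1, distal PAS, chr1:45976729-45976758, - strand: taatcttttgtagtttgtATTAAActtgaa
TXN, PAS 1, chr9:113006354-113006383, - strand: tttaatttacaaaaaTATAAAatatgaaga
TXN, PAS 2, chr9:113006302-113006331, - strand: gtgacAATAAAacattaatgctaacacttt
TXN, PAS 3, chr9:113006252-113006281, - strand: aatagctttcaaAATAAAtgtgaaatggtc

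In PRDX1 the proximal PAS, with AGTAAA, lost share to the distal one, with ATTAAA, in every knockdown set against the siCtrl of batch 1. The proximal site took 58.9% of the reads of PRDX1 in siCtrl (57.2 to 60.5%), 42.4% with siStar-PAP, 35.9% with siPAPα, 33.0% in the library labelled siPAPγ and 27.9% in the double KD. In RPM, the proximal site stood at 181 in siCtrl and at 36.4, 84.6, 71.3 and 60.6 in these knockdowns, lower in all. The distal site stood at 126 RPM in siCtrl and at 49.5, 151, 145 and 157, so that it was lower only in siStar-PAP. In batch 2 the proximal share went the other way, from 32.2% in siCtrl to 43.7% in siStar-PAP, with the proximal site at 48.7 and 43.5 RPM and the distal site at 102 and 56.0.

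In TXN the first PAS, with TATAAA, gained share in siPAPα, in the library labelled siPAPγ and in the double KD. Its share was 17.7% in siCtrl (14.9 to 20.8%), 20.7% with siStar-PAP, 50.8% with siPAPα and 38.5% in the library labelled siPAPγ. In the table of the double KD it was 20.1% in siCtrl and 39.0% in the knockdown. In RPM this site went from 10.4 in siCtrl to 33.8 in siPAPα, while the second site, with AATAAA, went from 41.4 to 26.8, so that the first site alone was higher. In siStar-PAP of batch 1 the share moved from the second site (70.4% to 51.9%) to the third (11.9% to 27.4%). These sites are close enough to be joined when PASs within 50 nt are merged. Counted as 1 site, they leave only the change of the first site, from 17.7% to 20.7%. In batch 2 the second site held 93.0% in siCtrl and 95.8% in siStar-PAP, and the third was not listed.

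**Figure D3:**
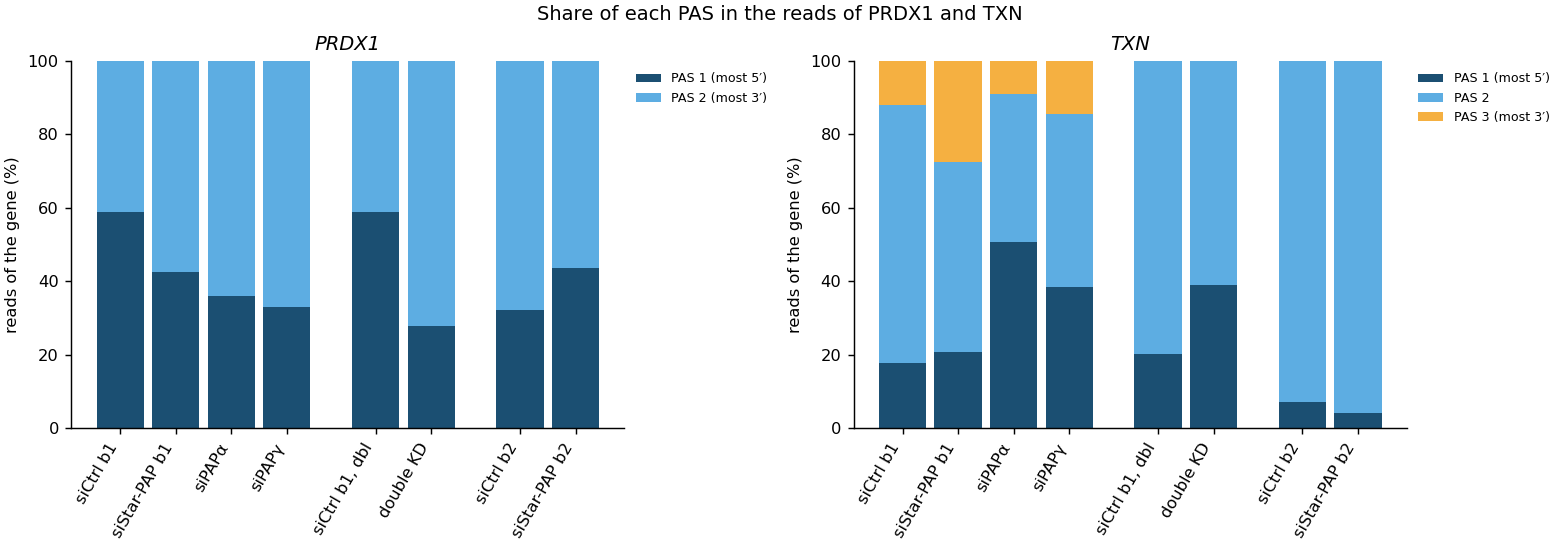
Share of each PAS in the reads of PRDX1 and TXN (% of the reads of the gene, bars add up to 100), numbered from the 5′ end of the gene. The bars named b1 are batch 1, b2 batch 2, and "siCtrl b1, dbl" is the same siCtrl library in the table of the double KD, which lists 2 of the 3 PASs of TXN. The first PAS of PRDX1 takes 58.9% in siCtrl and 27.9 to 42.4% in the knockdowns set against it, and the first PAS of TXN takes 50.8% in siPAPα.

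In PRDX6 a minor site in the middle of the 3′UTR gained share. The sites are shown because they differ in their signals, over the same positions and with the signal in capitals.
PRDX6, PAS 1, chr1:173457119-173457148, + strand: ataccaatggcttATTAAAtgaaaatggca
PRDX6, PAS 2, chr1:173457437-173457466, + strand: atatccaagTATAAAgcccaggaacttcta
PRDX6, PAS 3, chr1:173457919-173457948, + strand: caaAATAAAatcctttgttaaaactgggtc

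The second site, with TATAAA, held 2.06% of the reads of PRDX6 in siCtrl (67 of 3248 reads), 4.59% with siStar-PAP, 4.35% with siPAPα, 3.78% in the library labelled siPAPγ and 6.47% in the double KD. The batch 2 shares were 0.719% in siCtrl (11 of 1529 reads) and 1.41% in siStar-PAP, where the intervals, 0.360 to 1.28% and 0.872 to 2.14%, overlapped. It was higher than siCtrl in every pair, and it differed in the 4 pairs that share the siCtrl of batch 1. The third site, at the annotated end of the gene, held 83.7% in siCtrl and 77.9 to 83.0% in these knockdowns.

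In SOD1 the site nearest the gene end gained share in the same 4 pairs. The next site upstream lies within 50 nt of it. The share of the site nearest the gene end was 12.4% in siCtrl, 22.5% with siStar-PAP and 22.1% with siPAPα. It was 18.1% in the library labelled siPAPγ and 17.9% in the double KD, and the site was not listed in batch 2. In RPM this site stood at 7.53 in siCtrl and at 7.92, 9.89, 5.68 and 5.00 in these knockdowns. Its level was thus lower than in siCtrl in the library labelled siPAPγ and in the double KD. The main site of SOD1 held 66.4% in siCtrl and 57.5 to 63.4% in the knockdowns. In SOD2 the main site held 91.5% in siCtrl and 95.0% in siStar-PAP, 92.1% in siPAPα and 87.6% in the library labelled siPAPγ. In the table of the double KD, with 1 more site, it went from 90.6% to 81.8%, so that siStar-PAP of batch 1 and the double KD lay on opposite sides of siCtrl. In batch 2 the main site of SOD2 went from 75.6% in siCtrl to 51.2% in siStar-PAP, with 41 reads of the gene in each. That is the direction of the double KD. PRDX3, with 153 reads in siCtrl over 4 sites, differed most in siStar-PAP of batch 1, where its first site went from 17.6% to 38.2%. In batch 2 that site held 8.93% of 56 reads in siCtrl and 8.70% of 23 reads in siStar-PAP.

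**Figure D4:**
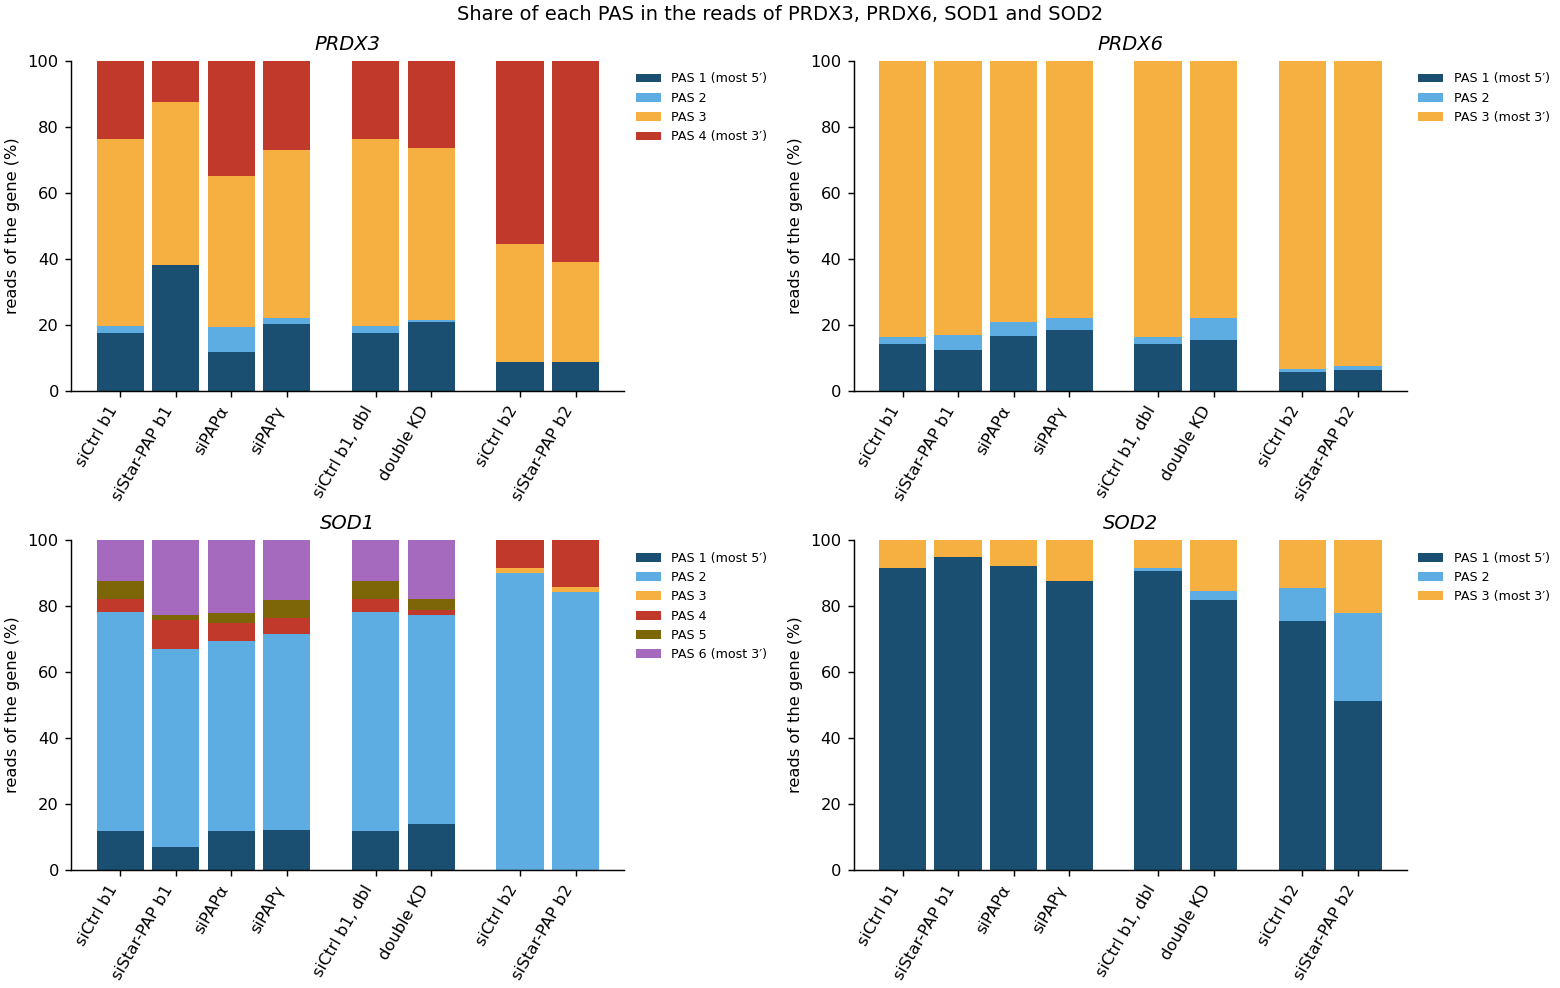
Share of each PAS in the reads of PRDX3, PRDX6, SOD1 and SOD2 (% of the reads of the gene), numbered from the 5′ end, with libraries named b1, b2 and dbl for batch 1, batch 2 and the table of the double KD. The main site keeps the largest share in all libraries for PRDX6, SOD1 and SOD2, and in batch 2 PRDX3 ends mostly at its last site, with 55.4% in siCtrl and 60.9% in siStar-PAP.

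A test of PAS use against the spread between the batches could be made for siStar-PAP only. In this edgeR test of PAS use over both batches of siStar-PAP, 5 of 13234 sites passed, or 0.0378%, and 0 of the 17 sites of these genes did, of which 0 had an unadjusted p under 0.05. The test called few sites of any gene, so that its count of 0 does not show that the shares were alike. The smallest p was 0.0524 (edgeR), for the second site of PRDX6. For PRDX1 the shares moved in opposite directions in the batches, and the distal site had a log2 change relative to its gene of 0.11 (edgeR p 0.763).

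The wider thiol and peroxide system gave little more. Of 28 further genes, namely thioredoxin reductases and partners, glutathione peroxidases, catalase, glutaredoxins, the other methionine sulfoxide reductases and sestrins, 26 were listed. In siStar-PAP over both batches 24 were tested and 0 passed in the edgeR fit, with 4 at an unadjusted p under 0.05. DESeq2 also called 0 of them. The largest changes were SESN2 (log2 fold change 1.13), GPX1 (0.99) and TXNRD3 (0.90) upward and SEPX1 (-1.13), TXNIP (-1.13) and CCS (-0.60) downward, none of which passed. Most of these values rest on 1 batch. The RPM ratio was 3.51 in batch 1 and 0.768 in batch 2 for SESN2, and 2.13 and 0.995 for TXNRD3. GPX1 had only 20 and 24 reads and SEPX1 11 and 4 reads in siCtrl and siStar-PAP of batch 2, and TXNIP had 0 reads in both libraries of batch 1. GPX1 is the main cytosolic glutathione peroxidase, SEPX1 the older symbol of the methionine sulfoxide reductase MSRB1, and CCS the copper chaperone of SOD1.

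In the fit of all 7 libraries, 2 of the 25 genes tested passed, in siPAPα and downward, and 0 passed in the other knockdowns. They were SESN3 (log2 fold change -2.81 ± 0.91, edgeR adjusted p 0.0399), a sestrin, and MSRB3 (-2.48 ± 0.82, edgeR adjusted p 0.0499), a methionine sulfoxide reductase. DESeq2 left both without an adjusted p, and it called 1 further gene, GPX1, upward in siStar-PAP of the same fit (DESeq2 adjusted p 0.0201). MSRB3 thus fell in siPAPα while MSRA was higher there, with 75 reads of MSRB3 in siCtrl and 39 in siPAPα against 474 and 6805 of MSRA. Relative to the median gene of that pair, the log2 ratio was -1.82 for MSRB3 and -2.46 for SESN3, both smaller in size than in the fit. MSRB3 had 16 reads in the library labelled siPAPγ and 21 in the double KD (log2 fold changes -2.23 and -2.43, edgeR adjusted p 0.170 and 0.0694). The other genes with the largest changes did not pass. In the double KD these were CAT (catalase, 2.27), GPX8 (1.38) and MSRB2 (1.20) upward and SESN3 (-2.28) and GSR (-1.82) downward, at edgeR adjusted p of 0.125, 0.109, 0.222, 0.132 and 0.412.

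In siPAPα CAT stood at a log2 fold change of 1.71, MSRB2 at 0.83, GPX8 at 0.78 and GLRX at -0.68 ± 2.41, a gene of 8 reads in siCtrl. In the library labelled siPAPγ GPX8 stood at 1.37, CAT at 1.19, SESN2 at 1.02, CCS at -1.11 and GLRX at -0.57. CAT rests on 9 reads in siCtrl of batch 1. GLRX2, TXNRD3 and TXNIP count as tested in the fit of all 7 libraries, but for these knockdowns and the double KD it gave them no usable SE. They could not pass there. The fit put TXNRD3 at 0.11 in each, over the PASs listed in both 3′READS tables. Its RPM ratios were 2.27 in siPAPα, 2.18 in the library labelled siPAPγ and 2.15 in the double KD. For siStar-PAP this fit gave SESN2 at 1.15 (edgeR adjusted p 0.0839), GPX1 at 1.01, GLRX5 at 0.76, SEPX1 at -1.11, TXNIP at -1.09 and GLRX at -1.31.

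Past 1.5-fold without a test, the same list had 3 genes higher and 7 lower of 22 in siStar-PAP of batch 1, 2 and 7 of 22 in siPAPα, 3 and 6 of 21 in the library labelled siPAPγ, 4 and 10 of 21 in the double KD, and 2 and 3 of 19 in siStar-PAP of batch 2. SESN2 and TXNRD3 were among the higher genes in the 4 pairs that share the siCtrl of batch 1. SESN2 stood at log2 ratios of 0.81 to 1.81 there and at -0.38 in batch 2. TXNRD3, with 56 reads in siCtrl of batch 1, stood at 1.09 to 1.18 there and at -0.01 in batch 2. Counts of all genes past 1.5-fold in these pairs are those given above for the 9 genes.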

How the data were processed

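The 7 libraries were HEK293 cells treated with control or PAP siRNAs, and groups were taken from the labels. The authors used bowtie2 and hg19 for mapping. PASS reads are unique alignments (MAPQ over 10) that carry at least 2 untemplated Ts. Sites up to 24 nt apart were merged, and the authors kept a PAS with at least 2 reads and over 5% of its gene in a sample. They deposited the number of PASS reads per PAS as counts, without normalization. RPM values used the number of PASS reads per library given by the study, since the tables hold only reads at retained PASs.

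Sense PASs were summed per gene and compared as RPM ratios, where past 1.5-fold needed more than 50 reads over the pair, by edgeR quasi-likelihood tests (TMM, filterByExpr, batch as a block, Benjamini-Hochberg adjustment over all genes), by two-sided Fisher's exact tests of PAS use and by edgeR's exon-usage test (diffSpliceDGE). The fit of all 7 libraries summed the PASs listed in both 3′READS tables. It placed the double KD, whose batch is not stated, with the 3′READS libraries of batch 1. SAAP, the program of the study, was not used here. Intervals were exact Poisson, Clopper-Pearson or conditional binomial intervals. The labels name a second batch, and the batch deviations of siCtrl and siStar-PAP correlated at r = 0.871 over 11878 genes, so batch was kept as the pairing. Genes named are the 10 members, 28 further thiol and peroxide genes as a list (values for those called and for the 3 largest changes each way in a fit) and the 5 genes nearest to MSRA. The second PAS of PRDX6 and the last PAS of SOD1 were singled out after their values were seen. Members and lists were chosen with earlier results of these data known. Steps were tested on simulated data. 0 columns were left without a sample. Sequences came from the GRCh37 genome and sites from GENCODE on that build. R 4.3.3, edgeR 4.0.16, DESeq2 1.42.0, Python 3.11.15, numpy 2.4.6, pandas 2.3.3, scipy 1.17.1 and matplotlib 3.10.9 were used.

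Alternatives covered the depth (totals of the tables, TMM or RLE factors, PASS totals, the median gene), DESeq2, the filters on reads and PASs, a 2-fold limit, 1 read added, merged PASs, no replicate block and each batch left out.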

Additional observations from a re-analysis of the deposited data

Results flagged for a closer look

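TXN differed in direction between the batches of siStar-PAP, and the difference was not tested. Its log2 ratio was 1.51 higher in batch 2 than in batch 1, with the interval on opposite sides of no change, and also of the median gene, in the batches. The batches also differ in protocol, and TXN had 58.8 RPM in siCtrl of batch 1 against 288 in that of batch 2.

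PRDX1 changed PAS use in opposite directions, also without a test of the difference. In siStar-PAP of batch 1 the share of its proximal PAS (chr1, 45976899) moved by -16.5 percentage points and that of its distal PAS (45976723) by 16.5 points. In batch 2 these moved by 11.5 and -11.5 points. The second PAS of TXN (chr9, 113006296) moved by -18.4 points in batch 1 and by 2.85 points in batch 2, where the third PAS of TXN was not listed.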

How the results depend on the processing

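The count of 0 members called in siStar-PAP over both batches was the same in each alternative taken singly (RLE factors, PASS totals or table totals as depth, no filter, DESeq2, all 7 libraries in one fit, no replicate block). The count of all genes called, 274, became 76 with PASS totals as depth, 173 with table totals, 444 with no filter and 0 with no replicate block, where 54 had an unadjusted p under 0.05 in edgeR and 0 member PASs passed in PAS use. The block changed no call of a member. In the fit of all 7 libraries with PASS totals as depth, 1 member, PRDX1, was called in siStar-PAP (edgeR adjusted p 0.0150).

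Log2 fold changes that changed sign were small. With PASS totals as depth they were -0.18 (PRDX2) and -0.23 (TXN) over both batches, where table totals gave -0.17 and -0.21. In the fit of all 7 libraries PASS totals gave -0.11 (PRDX1), -0.07 (PRDX2) and -0.27 (SOD1) in siPAPα, -0.23 (PRDX1) and -0.10 (PRDX6) in the double KD, -0.23 (PRDX1), -0.03 (PRDX2) and -0.11 (PRDX6) in the library labelled siPAPγ, and -0.18 (PRDX2) and -0.36 (TXN) in siStar-PAP. PASS totals place the median gene below siCtrl and TMM factors do not. Without one batch, with no residual degree of freedom and so no test, TXN stood at -0.51 (batch 1 alone) or 0.70 (batch 2 alone), PRDX3 at 0.36 or -0.86 and PRDX1 at -1.36 or -0.42.

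Counts of members past the fold also moved. TMM factors or the median gene gave 1 higher and 1 lower in siStar-PAP of batch 1 and the same in batch 2. TMM factors gave 1 lower in siPAPα, 2 in the library labelled siPAPγ and 2 in the double KD, where the median gene gave 3. A limit of 2-fold gave 1, 1, 2, 2 and 1 lower in siStar-PAP of batch 1, siPAPα, the library labelled siPAPγ, the double KD and siStar-PAP of batch 2, and more than 200 reads gave 1 in the last. A change of at least 10 percentage points left 7, 4, 4, 4 and 2 member PASs in these pairs. Depth limits PRDX3, SOD2 and MSRA in batch 2, with 23 to 153 reads.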
